A study of Mus musculus with 14 samples.

Results

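The Hedgehog pathway was followed through 7 genes in MC-38, a cell line of mouse colon cancer: the transcription factors Gli1, Gli2 and Gli3, the receptor Ptch1, the signal transducer Smo, and the inhibitors Hhip and Sufu. They were taken by symbol from count tables of 24411 genes, and all 7 were found. Gli1 was chosen by its measured levels, which differed between hosts, so its values in tumours are given as a description, with no test. The other 6 were taken as its pathway partners. Expression was measured by RNA sequencing in 14 libraries of 6 groups. For 4 groups, MC-38 cells expressing GFP were flow sorted from lung tumours at day 30, with 2 libraries each. These were tumours of PAD-4 knockout (KO) hosts after laparotomy on days 0 and 10 (KO laparotomy tumours), of KO hosts without surgery (KO control tumours), of wild-type hosts after the same laparotomies (WT laparotomy tumours) and of wild-type hosts without surgery (WT control tumours). The other groups were MC-38 cultures given chromatin of neutrophil extracellular traps (NET cultures) and cultures given none (control cultures), with 3 libraries each. PAD4 citrullinates histones when neutrophils release such traps. The deletion was in the host, while the line itself is labelled WT in its cultures, and all groups share the 1 cell line. The sources used here state neither the ages of the mice, nor how the knockout was made, nor whether animals were pooled. They also do not say that replicates are separate animals or cultures, so each p-value measures the spread among the sequenced samples only, and that spread may be technical.

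In mammals, Hedgehog ligands (Shh, Ihh, Dhh) bind Ptch1, which without ligand keeps Smo inactive. Active Smo at the primary cilium frees the Gli factors from Sufu and from processing into repressors. Gli2 is mainly the first activator, Gli3 mainly a repressor, and Gli1 an activator that is itself a target gene. Ptch1 and Hhip, a membrane protein that binds ligand, are also targets and act as negative feedback. In colon and lung, epithelial cells are known as a source of ligand and stromal cells as the responding cells.

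Gene counts summed to 10.8 to 31.3 M (1 M is 1000000) in tumour libraries and 6.39 to 20.6 M in culture libraries. Markers of leukocytes, endothelium, neutrophils, smooth muscle and lung mesenchyme were higher in every tumour library than in any culture, while sums of macrophage and lung epithelial markers overlapped between some tumours and cultures. WT control replicate 2 stood apart: its 10 macrophage markers summed to 1364 CPM (counts scaled to a library of 1000000), against 104 to 451 CPM in the other 7 tumour libraries. Of its sum, 1031 CPM came from Lyz2. Sums of 10 colon epithelial markers were low in all groups, at 1.98 to 31.6 CPM in tumours and 1.009 to 1.97 CPM in cultures, so the labelled origin of the line was not visible in these markers. Padi4, the host's deleted gene, does not check the host labels, since the sorted cells carry their own copy. It stood at 2.79 to 3.92 CPM in KO laparotomy, 2.05 to 5.28 in KO control, 29.7 to 29.9 in WT laparotomy and 3.15 to 7.25 in WT control tumours, and at 64.9 to 70.3 in NET and 65.8 to 74.3 in control cultures. All CPM here are scaled with TMM factors over the 14 libraries.

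The promoters of Gli2, Hhip and Ptch1 are shown because these 3 genes differed most between tumour cells and cultures below. Each sequence is from RefSeq (GRCm38.p6) and runs from 250 bases before a start given there to 50 after it, read along the gene: Gli2 at chr1:119053570-119053869, Hhip at chr8:80057959-80058258 and Ptch1 at chr13:63565686-63565985, all on the minus strand. The Ptch1 window lies inside the gene as annotated below (chr13:63508328-63573598). It is thus not at the annotated start of that gene, which is at 63573598. Capitals mark CCACCC, or GGGTGG as it reads on the other strand, which is the core of the Gli-binding consensus GACCACCCA.
Gli2 promoter: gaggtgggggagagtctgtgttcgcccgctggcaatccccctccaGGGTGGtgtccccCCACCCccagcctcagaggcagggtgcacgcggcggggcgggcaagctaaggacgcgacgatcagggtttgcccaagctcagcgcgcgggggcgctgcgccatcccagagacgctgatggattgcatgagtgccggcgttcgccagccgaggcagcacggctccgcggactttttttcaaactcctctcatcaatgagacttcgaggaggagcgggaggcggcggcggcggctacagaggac
Hhip promoter: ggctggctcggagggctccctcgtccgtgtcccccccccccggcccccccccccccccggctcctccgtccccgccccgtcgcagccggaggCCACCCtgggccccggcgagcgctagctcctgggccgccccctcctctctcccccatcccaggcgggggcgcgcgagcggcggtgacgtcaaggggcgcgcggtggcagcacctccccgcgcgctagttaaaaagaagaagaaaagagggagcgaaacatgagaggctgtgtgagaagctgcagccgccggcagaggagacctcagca
Ptch1 promoter: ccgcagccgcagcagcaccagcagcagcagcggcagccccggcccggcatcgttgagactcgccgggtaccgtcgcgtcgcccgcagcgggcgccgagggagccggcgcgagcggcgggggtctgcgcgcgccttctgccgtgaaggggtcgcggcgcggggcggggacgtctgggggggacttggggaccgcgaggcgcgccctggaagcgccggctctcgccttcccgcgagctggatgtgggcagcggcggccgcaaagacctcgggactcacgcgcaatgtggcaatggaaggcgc
Gli2 held 2 such cores and Hhip 1, while Ptch1 held none in this window. Of the 6 members with a promoter in the table (all but Gli1), 4 held the core, as did 31.5% of all 32851 promoters of the same length. The whole consensus of 9 letters, which contains the core, was in 0 of 6 members and in 0.253% of all promoters. These matches are letters in a window, not measured binding.

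Gli1 (chr10:127329882-127341974, minus strand, GRCm38) is the factor whose level is most often read as Hedgehog output. It stood at 70.7 and 53.9 CPM in KO laparotomy tumours, 12.2 and 12.8 CPM in KO control tumours, 33.6 and 37.8 CPM in WT laparotomy tumours and 75.3 and 49.97 CPM in WT control tumours. NET cultures had 44.8, 37.5 and 41.8 CPM, and control cultures 50.6, 49.9 and 47.4 CPM. The KO control libraries lay below all 12 others, and Gli1 in cultures fell inside the tumour range. By mean, the order was WT control tumours (62.7 ± 17.9 CPM; SD, n = 2), KO laparotomy tumours (62.3 ± 11.9; n = 2), control cultures (49.3 ± 1.72; n = 3), NET cultures (41.4 ± 3.65; n = 3), WT laparotomy tumours (35.7 ± 2.97; n = 2) and KO control tumours (12.5 ± 0.397; n = 2). Neighbours in this order overlapped in 2 places, between WT control and KO laparotomy tumours and between NET cultures and WT laparotomy tumours.

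As log2 fold changes from the edgeR fit of the 8 tumour libraries, Gli1 was 2.30 with laparotomy in KO hosts and -0.80 with laparotomy in WT hosts. The difference between these values, KO minus WT, was 3.11. Between hosts it was -2.32 for KO against WT without surgery and 0.79 for KO against WT with laparotomy. Gli1 was therefore higher after laparotomy in KO hosts and lower after it in WT hosts, with no overlap between the libraries in either host. Leaving out WT control replicate 1 put the WT laparotomy value at -0.50, and leaving out replicate 2 of that group put it at -1.06. The gene overlaps Arhgap9 and Gm47200 in the annotation, and reads of overlapping genes cannot be told apart in unstranded counts, but 1.56% of its strand-assigned reads lay on the opposite strand.

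**Figure D1:**
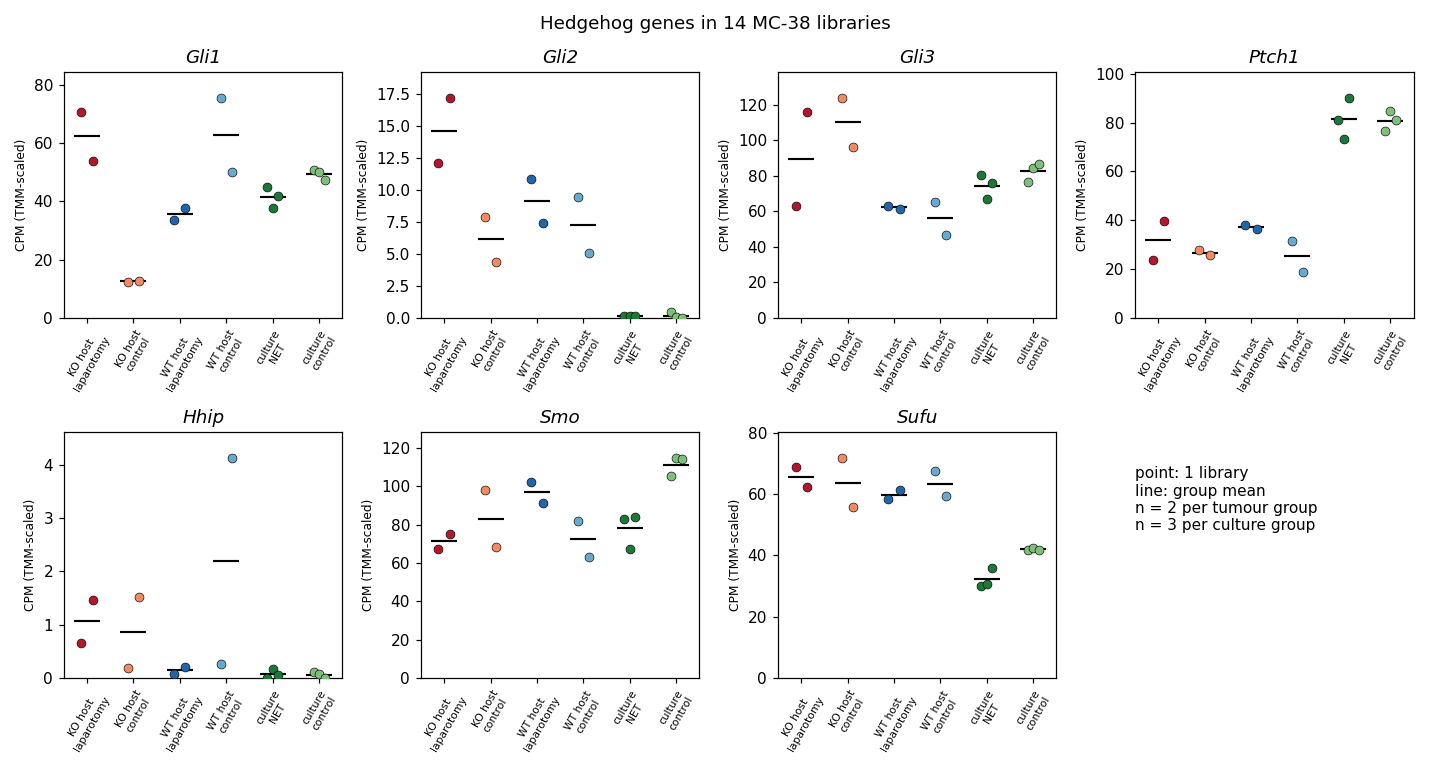
Levels of the 7 Hedgehog genes in each library (points; vertical axes in TMM-scaled CPM, each from 0) with group means (lines), 2 libraries per tumour group and 3 per culture group. Gli1 is lowest in the 2 KO control tumours (12.2 and 12.8 CPM), Gli2 is near 0 in all 6 cultures, and Ptch1 is lower in all 8 tumour libraries than in any culture.

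Gli2 (chr1:118834132-119053619) had 9 counts over the 6 cultures together and 105 to 259 counts in each tumour library. In CPM it stood at 12.1 and 17.2 in KO laparotomy, 7.92 and 4.39 in KO control, 10.9 and 7.45 in WT laparotomy and 9.45 and 5.08 in WT control tumours. NET cultures held 0.125, 0.170 and 0.109 CPM, and control cultures 0.437, 0.0809 and 0 CPM. Every tumour library lay above every culture. The summed counts of all tumours stood 62.3-fold above those of all cultures after scaling, with a 95% counting interval of 32.8 to 137. In bulk samples, fewer cells of a type and less RNA per cell cannot be told apart.

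Gli3 (chr13:15463235-15730026) was present in all groups. It had 62.8 and 115.9 CPM in KO laparotomy tumours, 123.6 and 96.4 in KO control tumours, 62.9 and 61.5 in WT laparotomy tumours and 65.4 and 46.8 in WT control tumours. NET cultures had 80.4, 66.8 and 75.6 CPM, and control cultures 76.6, 84.3 and 86.5 CPM. The KO control tumours, lowest in Gli1, were above both WT tumour groups in Gli3, whereas 1 KO laparotomy library lay as high as they did and the other lay among the WT libraries.

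The make-up of the Gli transcripts follows from these levels once each is divided by exonic length. Gli1 made up 63.0 and 42.5% of the summed Gli level per kb in KO laparotomy tumours, 14.8 and 19.3% in KO control tumours, 45.3 and 50.3% in WT laparotomy tumours and 64.8 and 64.0% in WT control tumours. In NET cultures the Gli1 share was 51.6, 51.8 and 51.5%, and in control cultures 55.8, 53.1 and 51.3%. Gli2 was 4.73 to 10.6% of the sum in tumours and at most 0.350% in cultures. Thus Gli1 and Gli3 were of similar weight in cultures, and Gli3 outweighed Gli1 in the KO control tumours and in KO laparotomy replicate 2.

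**Figure D2:**
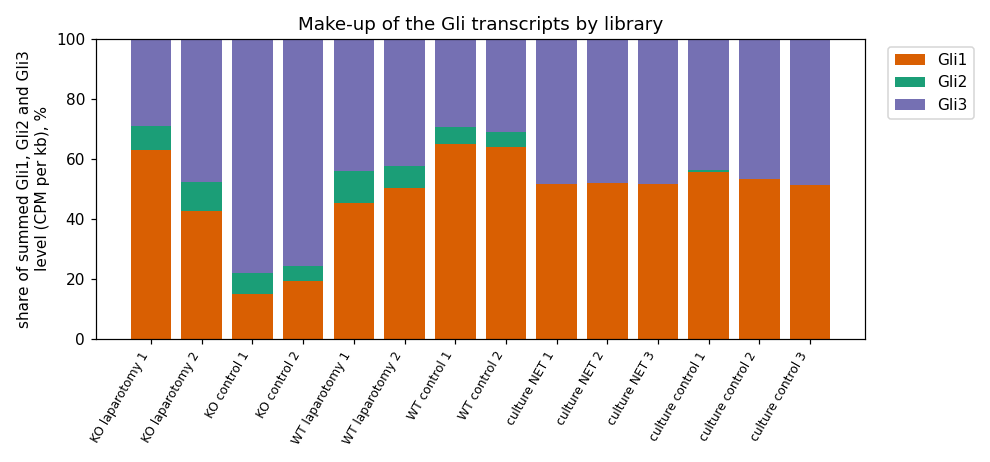
Share of the summed Gli1, Gli2 and Gli3 level (CPM per kb of exon) held by each gene, 1 stacked bar per library. Gli1 holds 14.8 and 19.3% in the KO control tumours and 42.5 to 64.8% in the other tumours, and Gli2 holds 4.73 to 10.6% in tumours and at most 0.350% in cultures.

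Ptch1 (chr13:63508328-63573598), the ligand receptor, stood at 23.7 and 39.7 CPM in KO laparotomy, 27.9 and 25.6 in KO control, 37.9 and 36.4 in WT laparotomy and 31.7 and 18.9 in WT control tumours. NET cultures had 80.9, 73.2 and 90.0 CPM, and control cultures 76.6, 84.7 and 81.1 CPM. No tumour library reached a culture. Although Gli1 and Ptch1 are both known targets of the pathway, their ratio was not constant. Per kb, Gli1 stood at 8.47 and 3.85 times the Ptch1 level in KO laparotomy tumours, 1.24 and 1.42 times in KO control tumours, 2.52 and 2.95 times in WT laparotomy tumours and 6.75 and 7.52 times in WT control tumours. The ratio per kb was 1.57, 1.46 and 1.32 in NET cultures and 1.88, 1.67 and 1.66 in control cultures. The KO control tumours thus had the lowest ratio of the tumours, below the control cultures.

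Smo (chr6:29735503-29761365), which passes the signal on once Ptch1 is bound, was the highest of the 7 per kb in 12 of 14 libraries. The exceptions were KO laparotomy replicate 1 and WT control replicate 1, where Gli1 was highest. Smo had 67.6 and 75.0 CPM in KO laparotomy, 97.8 and 68.3 in KO control, 102.1 and 91.4 in WT laparotomy and 82.1 and 63.2 in WT control tumours. NET cultures had 83.2, 67.3 and 83.9 CPM, and control cultures 105.1, 114.5 and 114.0 CPM. The control cultures were above every other library.

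Sufu (chr19:46396896-46488804), which holds the Gli proteins in the cytoplasm, had 68.8 and 62.4 CPM in KO laparotomy, 71.6 and 55.7 in KO control, 58.2 and 61.4 in WT laparotomy and 67.4 and 59.3 in WT control tumours. NET cultures had 30.0, 30.6 and 35.9 CPM, and control cultures 41.9, 42.3 and 41.8 CPM. Sufu was higher in every tumour library than in any culture, and lower in every NET culture than in any control culture.

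Hhip (chr8:79965851-80058006), the ligand-binding inhibitor, was scarce. Its counts were 10 and 22 in KO laparotomy, 5 and 41 in KO control, 2 and 7 in WT laparotomy and 3 and 129 in WT control tumours. NET cultures had 0, 1 and 1 counts, and control cultures 1, 1 and 0. Most of its tumour counts thus lay in WT control replicate 2, which had 15.3 times the scaled level of replicate 1 (95% counting interval 5.11 to 74.9) and also had the highest sums of macrophage, leukocyte, lung epithelial and endothelial markers. Its 13 lung epithelial markers summed to 854 CPM, against 153 CPM in replicate 1, and the part of such cells in the Hhip counts was not tested.

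The first tested comparison set WT control tumours against control cultures, to show how sorted tumour cells differ from the line in a dish. All 6 members open to a test were called: Gli2, Hhip and Sufu were higher and Ptch1, Smo and Gli3 lower in tumours. Gli2 and Hhip were too scarce to be tested in the cultures alone and entered through the tumours. Their direction was thereby all but fixed, so their values are a description and their calls are no support. Over all genes tested 67.3% were called, 36.5% higher and 30.8% lower, so most genes differed here. The log2 fold change of Ptch1 was -1.70 ± 0.22 (SE; edgeR adjusted p = 2.17e-05), that of Smo -0.62 ± 0.15 (adjusted p = 0.00303) and that of Gli3 -0.57 ± 0.22 (adjusted p = 0.0361). Sufu rose by 0.59 ± 0.12 (adjusted p = 0.000628). For Gli2 the counts were 264 in the 2 tumour libraries and 5 in the 3 cultures, a scaled ratio of 42.8 (95% counting interval 18.1 to 133; adjusted p = 5.61e-06). For Hhip they were 132 and 2, a ratio of 53.5 (14.5 to 446; adjusted p = 0.00383). In all 6 the tumour libraries did not overlap the cultures, as was so for 80.2% of all genes. Gli1, not tested, was 0.34 higher in tumours on the log2 scale, with overlapping libraries. Without WT control replicate 2, the library rich in host-cell markers, 3 of the 6 calls were lost. Hhip then stood at 2.06 (adjusted p = 0.320), Smo at -0.44 (0.0516) and Gli3 at -0.34 (0.293), while Gli2, Ptch1 and Sufu stayed past the threshold. The call of Gli3 also ended without control culture replicate 2 (-0.55, adjusted p = 0.0754), without control culture replicate 3 (-0.51, 0.0952) and without WT laparotomy replicate 2 (-0.55, 0.0549), which enters the fit only through the shared spread. Sorting, host and culture differ together between these groups and cannot be told apart.

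The second asked what NET chromatin does to cultured cells. Smo, Sufu and Gli1 fell in NET cultures, Ptch1 and Gli3 did not pass, and Gli2 and Hhip had too few counts to be tested. The 3 calls of 5 tested members stand beside 54.1% of all genes called, 26.3% higher and 27.8% lower. The log2 fold change was -0.51 ± 0.08 for Smo (SE; edgeR adjusted p = 3.17e-05), -0.38 ± 0.09 for Sufu (0.00126) and -0.26 ± 0.08 for Gli1 (0.0141). In all 3 the NET libraries lay below the control libraries without overlap, as did 29.6% of all genes. Gli3 was at -0.16 ± 0.08 (adjusted p = 0.0893) and Ptch1 at 0.01 ± 0.07 (0.943). The Gli1 call ended without NET replicate 3 (-0.24, adjusted p = 0.0808) and in a fit of all 14 libraries (-0.25, 0.239), and Gli3 was called without NET replicate 1 (-0.23, 0.0282). With library totals in place of TMM factors the median gene shifted by -0.16, Gli3 was called at -0.32 (adjusted p = 0.00349) and the sign of Ptch1 turned (-0.15), so these values are relative to the median gene. NET cultures also held more leukocyte marker counts, with a sum over 10 genes of 15.3 to 18.0 CPM, against 4.66 to 6.56 CPM in control cultures, and the part of this in the Hedgehog values was not tested.

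**Figure D3:**
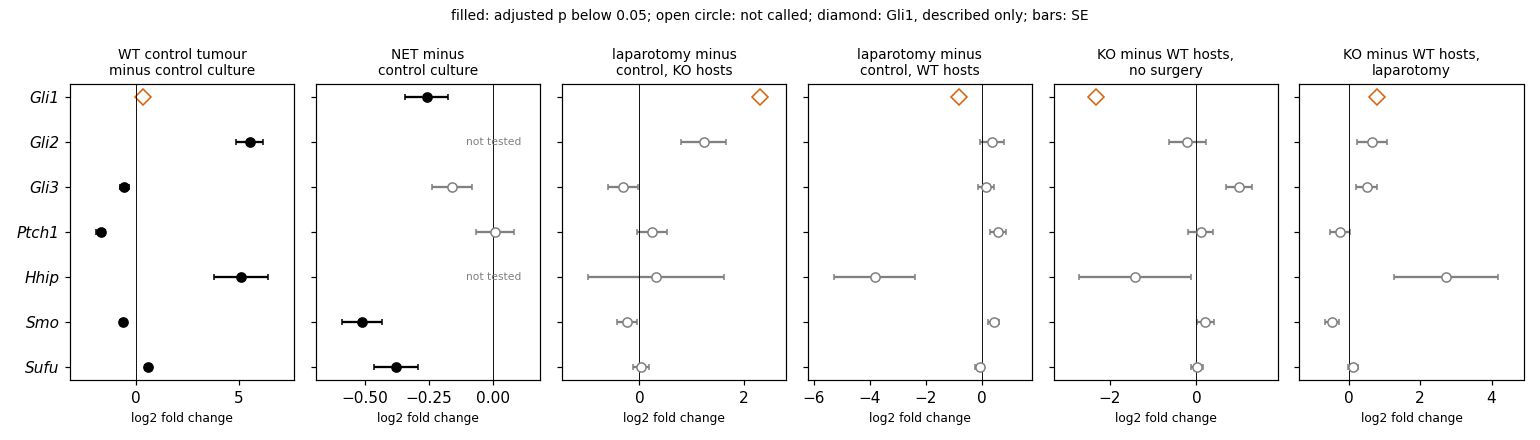
Log2 fold changes of the 7 genes in 6 comparisons (horizontal axes, whose ranges differ between panels), with SE bars, filled circles past an adjusted p of 0.05, open circles not past it and open diamonds for Gli1 where it was described only. In tumours against cultures 6 genes are filled and in NET against control cultures 3, and no circle is filled in the 4 panels that compare tumour groups. Gli2 and Hhip among the 6 were too scarce in cultures to be tested there.

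For laparotomy in KO hosts none of the 6 tested members was called at an adjusted p of 0.05, beside 0.52% of all genes called. By edgeR 1 member, Gli2, had an unadjusted p below 0.05, as did 15.7% of all genes, and DESeq2 called 0 members and 5.45% of all genes. Gli2 was at 1.23 ± 0.43 on the log2 scale (SE; edgeR adjusted p = 0.221), with both KO laparotomy libraries (12.1 and 17.2 CPM) above both KO control libraries (7.92 and 4.39 CPM). Higher CPM without overlap were found for 22.7% of all genes in this comparison. The other 5 lay between -0.32 (Gli3) and 0.31 (Hhip), all with overlapping libraries.

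For laparotomy in WT hosts likewise none of the 6 was called, beside 0.0547% of all genes called by edgeR. Of the members Hhip alone had an unadjusted p below 0.05, as did 18.8% of all genes, and DESeq2 called 0 members and 8.42% of all genes. Hhip was at -3.83 ± 1.46 (SE; edgeR adjusted p = 0.217), a value that moved to -0.77 without WT control replicate 2. Ptch1 was at 0.57 ± 0.29 (adjusted p = 0.331) and Smo at 0.42 ± 0.20 (0.299), with both WT laparotomy libraries above both WT control libraries in each gene. Higher CPM without overlap were found for 29.1% of all genes. Gli2 (0.35), Gli3 (0.16) and Sufu (-0.08) overlapped.

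The difference between the laparotomy effects, KO minus WT, was called for 0 of the 6 tested members and for 0.677% of all genes. By edgeR 1 member, Smo, had an unadjusted p below 0.05, as did 19.2% of all genes, and DESeq2 called 0 members and 7.81% of all genes. Smo was at -0.66 ± 0.28 (SE; edgeR adjusted p = 0.249), Hhip at 4.14 ± 1.93 (0.288) and Gli2 at 0.88 ± 0.60 (0.456). The described difference of Gli1, 3.11 on the same scale, was thus not accompanied by a call in its receptor, its inhibitors or the other Gli factors. These missing calls do not show that the genes were unchanged. In counts simulated for laparotomy in WT hosts, 56.2% of 2-fold and 94.8% of 4-fold changes were recovered, and fewer of smaller changes. Those changes were placed only in genes above a minimum mean level, with the average spread for that level. Recovery may be lower in scarcer or more variable genes, such as Hhip. In the measured data 0 of 13 lung epithelial markers were called for laparotomy in WT hosts, at a median of -5.05. The difference between the laparotomy effects was not simulated.

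Between hosts without surgery, 0 of the 6 members were called by edgeR, beside 0.116% of all genes. Gli3 was the 1 member with an unadjusted p below 0.05, as 16.3% of all genes had, at 0.98 ± 0.29 (SE; edgeR adjusted p = 0.199), and its KO control libraries (123.6 and 96.4 CPM) did not overlap the WT control libraries (65.4 and 46.8 CPM). DESeq2, which called 5.4% of all genes, called it at 0.97 (adjusted p = 0.0105), as did the fit of all 14 libraries, at 0.98 (adjusted p = 0.0295). Higher CPM without overlap were found for 22.1% of all genes. The other 5 members overlapped, with Hhip at -1.42 ± 1.28 (edgeR adjusted p = 0.626) and the remaining 4 between -0.22 (Gli2) and 0.20 (Smo).

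Between hosts with laparotomy, 0 of the 6 members were called by edgeR, beside 0.0205% of all genes. Smo alone of the members had an unadjusted p below 0.05, as did 13.4% of all genes, and DESeq2 called 0 members and 3.99% of all genes. Smo was at -0.45 ± 0.20 (SE; edgeR adjusted p = 0.374), Gli2 at 0.66 ± 0.42 (0.523) and Hhip at 2.73 ± 1.44 (0.458). In all 3 the KO laparotomy libraries did not overlap the WT laparotomy libraries, and 52.2% of all genes did not overlap in either direction. Sufu also lay apart, by 0.12 ± 0.15 (adjusted p = 0.753). The 4 comparisons among tumours share libraries, so their values are not independent of each other.

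The rest of the pathway was followed in 4 lists of 48 genes and in 18 genes of the primary cilium. Ligand transcripts were few. Shh had 6 counts over the 8 tumours and 0 over the 6 cultures, where 3 counts is the limit that a count of 0 allows. Ihh had 45 counts in tumours and 14 in cultures, a scaled ratio of 1.17 (95% counting interval 0.633 to 2.32). Dhh had 170 counts in tumours and 11 in cultures, a ratio of 5.65 (3.08 to 11.5). Dhh therefore was the ligand with most counts in tumours, and 57 of its 61 counts in WT control tumours came from replicate 2.

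In WT control tumours against control cultures, 10 of 14 tested Hedgehog target genes rose and none fell (edgeR; median log2 fold change 1.4998), beside 36.5% of all genes called higher and 30.8% lower. The median was the same with Bmp4 and Wnt5a, the 2 targets at 0 in these cultures, set to the bound that 3 counts over the group allow, and the median of all genes was 0.07. Only 10 targets had enough counts to be tested in the cultures alone. Bmp4, Wnt5a, Sfrp1 and Foxl1 entered through the tumours, which all but fixed their direction. Their part in the count and the median is thus no support for a rise. Snai1, a transcription factor of epithelial to mesenchymal transition, had 79.7 and 52.6 CPM in tumours, against 9.51, 11.6 and 9.94 CPM in cultures (2.67 ± 0.18, adjusted p = 4.03e-08). Cd44, the hyaluronan receptor, had 699.8 and 804 CPM in tumours, against 261, 264 and 266 CPM (1.51 ± 0.08, adjusted p = 4.04e-09). Many signals besides Hedgehog are known to act on both genes. In the cilium list, where Bbs1 also entered through the tumours, 3 of 18 rose and 12 fell (median -0.54), beside the same shares of all genes. Among those that fell were Kif3a, a motor of ciliary transport (-1.13 ± 0.08, adjusted p = 7.63e-08), and Bbs4 of the BBSome (-1.69 ± 0.18, adjusted p = 2.77e-06).

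Among 8 tested reception genes 1 rose and 5 fell (median -0.72), and these counts and the next stand beside 67.3% of all genes called in this comparison. The co-receptor Boc rose by 3.05 ± 0.38 (SE; edgeR adjusted p = 1.13e-05), and Evc, which binds Smo at the cilium base, fell by 1.77 on the log2 scale (adjusted p = 7.81e-07). Boc was too scarce to be tested in the cultures alone and entered through the tumours. Its rise is therefore a description and its call is no support. Among 16 transduction genes 4 rose and 7 fell (median -0.22), a count near the share of all genes, with the kinase Stk36 at 2.16 ± 0.20 (adjusted p = 5.51e-07) and the protein kinase A subunit Prkar1a at 0.65 ± 0.08 (1.16e-05). Among 6 tested genes of ligands and their release 3 rose and 1 fell (median 2.42, the same with Scube1, at 0 in these cultures, at its bound). Only Disp1 and Scube3 of these 6 had enough counts to be tested in the cultures alone. The others entered through the tumours, which all but fixed their direction. Their part in this count and median is thus no support for a rise. Disp2 had 492 counts in the tumours and 2 in the cultures, a scaled ratio of 199 (95% counting interval 54.9 to 1651), and Scube3 was at -2.13 ± 0.40 (adjusted p = 0.000341). The summed level of 14 lung mesenchymal markers was 1429 and 1432 CPM in these tumours, against 113 to 116 CPM in control cultures, and the part of host cells in the list values was not tested.

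In NET cultures 4 of 6 tested reception genes fell and none rose, and 6 of 17 cilium genes fell and none rose (edgeR), beside 27.8% of all genes called lower and 26.3% higher. The cilium count lies near the share of all genes. Medians were -0.63 and -0.17, against 0.0007 for all genes. Gas1, a co-receptor of Hedgehog ligands, had 21.4, 14.3 and 18.9 CPM in NET cultures, against 51.7, 59.4 and 61.1 CPM in control cultures (-1.66 ± 0.11; SE, adjusted p = 8.05e-09). Evc had 27.2, 26.8 and 29.1 CPM in NET cultures, against 42.0, 49.2 and 46.0 CPM (-0.73 ± 0.09, adjusted p = 3.06e-06). Among cilium genes Kif3b, a partner of Kif3a, was at -0.77 ± 0.09 (adjusted p = 2.22e-06) and Cep164, of the basal body, at -0.46 ± 0.10 (0.000689).

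The other lists were mixed, beside 54.1% of all genes called. In transduction 6 of 16 rose and 4 fell (median 0.05), with Cul3, a ubiquitin ligase scaffold, at 0.40 ± 0.07 (SE; edgeR adjusted p = 0.000148) and the ciliary protein Iqce at -0.80 ± 0.08 (6.73e-07). Among 10 tested targets 2 rose and 5 fell (median -0.41), including the cyclin Ccnd1 (-0.59 ± 0.09, adjusted p = 4.71e-05) and the cell cycle factor Foxm1 (-0.47 ± 0.09, 0.000217). Of 2 tested genes of ligands and release, Disp1, which releases ligand from cells, fell by 0.62 (adjusted p = 0.000121) and Scube3 was at 0.21 ± 0.12 (0.153). Over the 5 lists 8 of 51 tested genes were higher and 20 lower, and with library totals 5 were higher and 26 lower. The 28 called of 51 lie near the share of all genes.

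**Figure D4:**
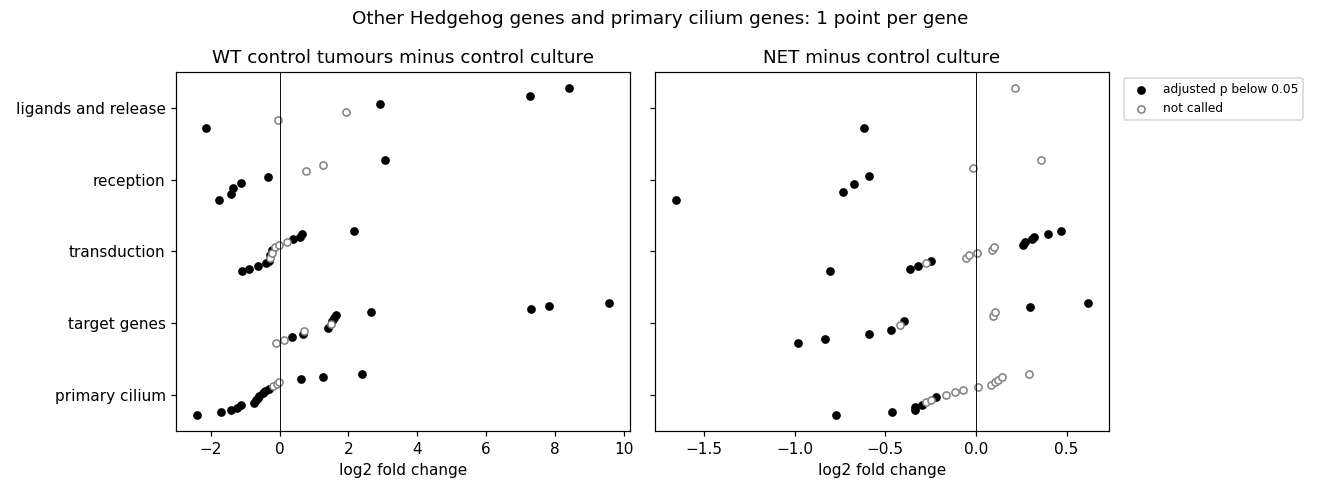
Log2 fold changes of the other Hedgehog genes and of primary cilium genes (1 point per gene; filled past an adjusted p of 0.05) in WT control tumours minus control cultures (left) and NET minus control cultures (right). Target genes lie mostly to the right in tumours, with 10 of 14 called higher, and reception and cilium genes called in NET cultures all lie to the left. The 14 include Bmp4, Wnt5a, Sfrp1 and Foxl1, which were too scarce in cultures to be tested there.

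Among the tumour groups, edgeR called no gene of the 5 lists (63 tested) in KO laparotomy against KO control, WT laparotomy against WT control, or KO against WT with or without surgery. Unadjusted p-values were below 0.05 for 8, 10, 9 and 4 of them in these comparisons, in the order KO laparotomy, WT laparotomy, KO against WT with laparotomy and KO against WT without it. The shares of all genes were 15.7, 18.8, 13.4 and 16.3% in that order. DESeq2 called 3 of 62, 5 of 62, 2 of 59 and 1 of 62 genes it tested, beside 5.45, 8.42, 3.99 and 5.4% of all genes. In the difference between the laparotomy effects 1 gene was called, Sfrp1 (chr8:23411502-23449632), a secreted Wnt antagonist that Hedgehog signalling is known to induce.

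Sfrp1 stood at 16.4 and 2.92 CPM in KO laparotomy tumours, 0.257 and 0.335 in KO control tumours, 0.340 and 0.525 in WT laparotomy tumours and 13.1 and 3.32 in WT control tumours. The counts behind these levels were 247 and 44, 7 and 9, 8 and 17, and 146 and 104. The KO laparotomy and WT control groups lay apart from the other 2 groups, as they did for Gli1. The laparotomy effect was 4.99 ± 1.03 in KO hosts (SE; edgeR adjusted p = 0.0901) and -4.20 ± 0.99 in WT hosts (0.135), and the difference was 9.19 ± 1.43 (adjusted p = 0.0405). That call ended without WT laparotomy replicate 1 (8.94, adjusted p = 0.260) or replicate 2 (9.54, 0.234), without KO control replicate 1 (9.02, 0.169) or replicate 2 (9.36, 0.0688) and without KO laparotomy replicate 1 (7.46, 0.0629).

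For several other cell types the median marker, like Gli1 and Sfrp1, had a more positive laparotomy effect in KO than in WT hosts. In the difference between the laparotomy effects, KO minus WT, all 10 macrophage markers were positive (median log2 difference 2.85), as were all 13 lung epithelial markers (4.499), all 10 leukocyte markers (2.83), 8 of 9 tested neutrophil markers (4.59), 10 of 11 endothelial markers (2.46) 8 of 9 smooth muscle and pericyte markers (1.95) and 13 of 14 lung mesenchymal markers (2.99), beside a median of 0.03 over all genes. All 5 tested colon epithelial markers were positive too (4.80), with medians of 0.39 for laparotomy in KO hosts and -3.04 in WT hosts. By edgeR 1 of all these markers was called in the difference, the endothelial gene Ecscr (1.35 ± 0.17; SE, adjusted p = 0.0201). With laparotomy in KO hosts, where Gli1 and Sfrp1 were higher, median log2 fold changes were mixed. They were 0.86 for macrophage (10 of 10 positive), 0.64 for smooth muscle (5 of 9) and 0.28 for leukocyte markers (6 of 10). Lung epithelial markers were at -0.26 (6 of 13 positive), neutrophil at -0.74 (3 of 9) and endothelial at -1.02 (1 of 11). In WT hosts all these medians were negative, from -1.51 (smooth muscle) to -5.05 (lung epithelium). The 10 macrophage markers summed to 451 and 304.5 CPM in KO laparotomy tumours, 110.7 and 303 in KO control tumours, 113.5 and 103.6 in WT laparotomy tumours and 335.5 and 1364 in WT control tumours. All 10 had counts in every tumour group, but these sums too weight abundant genes most. Lyz2 alone gave 178 to 274 CPM in KO laparotomy and 47.3 to 203 CPM in KO control tumours. It gave 36.35 to 42.0 CPM in WT laparotomy and 207.5 to 1031 CPM in WT control tumours. Within the KO control group, replicate 2 had the higher macrophage sum (303 CPM, against 110.7 CPM), while Gli1 was 12.8 CPM in replicate 2 and 12.2 CPM in replicate 1. Within the WT control group, replicate 2 had the higher macrophage sum and the lower levels of Gli1 (49.97 CPM, against 75.3 CPM) and Sfrp1 (3.32 CPM, against 13.1 CPM). In KO laparotomy tumours replicate 1 had the higher macrophage sum. It also had the higher Gli1 (70.7 CPM, against 53.9 CPM) and Sfrp1 (16.4 CPM, against 2.92 CPM). In WT laparotomy tumours replicate 1 had the higher macrophage sum as well. Its Gli1 (33.6 CPM, against 37.8 CPM) and Sfrp1 (0.340 CPM, against 0.525 CPM) were lower. The part of such cells in the Gli1 and Sfrp1 values was not tested. Lung mesenchyme is known to hold cells that express Gli1, and its 14 markers summed to 1389 and 3096 CPM in KO laparotomy, 1492 and 1076 in KO control, 1439 and 1041 in WT laparotomy and 1432 and 1429 in WT control tumours. Of these 14 markers, Meox2 was at 0 in WT laparotomy tumours and the rest had counts in every tumour group. These sums overlapped between groups, but they weight abundant genes most. Marker by marker, the median log2 fold change of the 14 was -0.43 with laparotomy in KO hosts (6 positive), -2.58 with laparotomy in WT hosts (2 positive), -0.83 for KO against WT without surgery (3 positive) and 2.11 for KO against WT with laparotomy (13 positive).

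**Figure D5:**
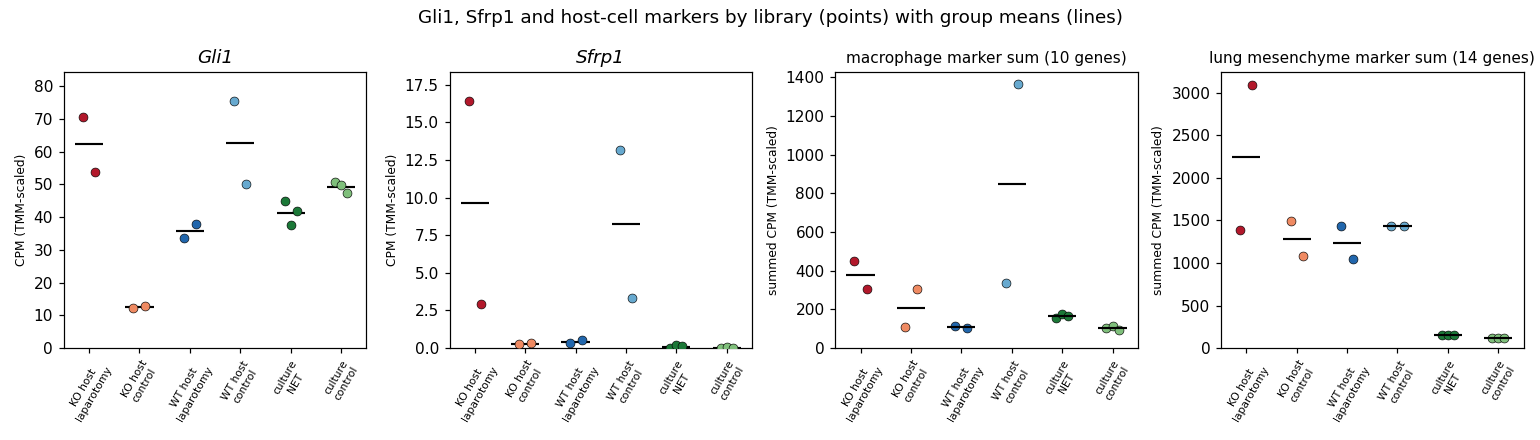
Gli1 and Sfrp1 levels and summed macrophage (10 genes) and lung mesenchyme (14 genes) markers, in TMM-scaled CPM by library (points) with group means (lines). Gli1 and Sfrp1 are both high in KO laparotomy and WT control tumours, and the macrophage sum is highest in WT control replicate 2 (1364 CPM) and the mesenchyme sum in KO laparotomy replicate 2 (3096 CPM).

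The genes whose level was most like that of Gli1 over the 8 tumour libraries, by Pearson r of log2 CPM among 12059 genes, were Slc27a4 (0.985), Cenpt (0.978), Dact3 (0.977), Tmco3 (0.976) and Dolpp1 (0.971). With 8 points and that many genes, values of this size describe a pattern and carry no test. Slc27a4, a fatty acid transport protein, spanned 68.9 to 76.5 CPM in KO laparotomy, 49.0 to 49.7 in KO control, 64.7 to 68.7 in WT laparotomy and 73.3 to 78.4 in WT control tumours. Dact3, an inhibitor of Wnt signalling, spanned 10.9 to 12.2, 5.36 to 6.01, 8.53 to 9.47 and 10.4 to 14.2 CPM in the same groups. Both were lowest in the KO control tumours, over a narrower range than Gli1. Among the other members, r with Gli1 was 0.517 for Gli2, 0.144 for Sufu, 0.121 for Hhip, 0.046 for Ptch1, -0.3 for Smo and -0.591 for Gli3. The points share their libraries, scaling and group structure.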

How the data were processed

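RNA sequencing gave 14 libraries of MC-38 cells in 6 groups, taken from the labels. The authors deposited whole-number read counts per gene, unstranded and for each strand. TRIzol was used for total RNA, per the labels' protocols. Reads were processed with STAR and Trimmomatic on mm10, per the submitters' processing notes; versions, options and annotation were not given in the sources used here. The 4 summary lines, which name no gene (reads without a feature were 12.1 to 24.0% of all reads), entered neither library sizes nor tests. Unstranded counts were used. The smaller strand-specific column held 1.09 to 1.20% of strand-assigned counts.

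The quasi-likelihood test of edgeR 4.0.16 (R 4.3.3) was used with filterByExpr, TMM factors, robust dispersion, Benjamini-Hochberg adjustment over all genes tested and a threshold of 0.05. Cultures were fitted alone (11753 genes, 4 residual degrees of freedom), the 8 tumour libraries together (14615 genes, 4 degrees of freedom), and all 14 libraries for tumours against culture (14421 genes, 8 degrees of freedom). Levels are CPM with the TMM factors of the 14-library fit and no count added. Levels per kb use the exonic length in GENCODE release M21 (GRCm38), which also gave positions. Counting intervals (95%) and floors (3 counts) cover counting error only, since there are no molecular identifiers. No 2 libraries of a group agreed within counting noise. Tests were checked on simulated counts, among the tumour groups only for laparotomy in WT hosts.

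Members and gene lists were chosen with earlier results of these data known. The naming rule took all 7 members, the 2 genes with the smallest p of each other list in each comparison, the 3 ligands and the 5 genes most like Gli1 (mean of at least 1 CPM, prior count of 2). Not every gene it took is printed, 1 gene is not reported here, and Bmp4, Wnt5a, Ecscr and Padi4 lie outside it and were named after their values were seen. Alternatives were RLE factors, library totals, no filter, DESeq2 1.42.0, the larger strand-specific column, only the groups compared, all libraries in 1 fit, a replicate block and leaving out each library.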

Additional observations from a re-analysis of the deposited data

Results flagged for a closer look

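The laparotomy effect on Sfrp1 differed between hosts. The difference, KO minus WT, was 9.19 on the log2 scale in edgeR's test of the interaction (SE 1.43, adjusted p = 0.0405), and over its alternatives the adjusted p lay between 4.51e-12 and 0.260. Both KO laparotomy libraries lay above both KO control libraries, and both WT laparotomy libraries below both WT control libraries.

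The laparotomy effect on Gli1 had opposite directions in the 2 hosts. The difference was 3.11 on the log2 scale and was not tested, since Gli1 was chosen for it. Both KO laparotomy libraries lay above both KO control libraries, and both WT laparotomy libraries below both WT control libraries.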

How the results depend on the processing

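Calls among members and among the 66 other pathway and cilium genes moved with the test more than with the scaling. DESeq2 called 5 pathway genes for laparotomy in WT hosts, 3 for laparotomy in KO hosts, 2 for the difference between those effects, 1 for KO against WT without surgery and 2 with laparotomy, where edgeR called 0, 0, 1, 0 and 0. The fit of all 14 libraries called 7, 2, 3, 2 and 2 of them, and each of DESeq2 and this fit called 1 member (Gli3) for KO against WT without surgery. That fit pools tumours with cultures, whose common coefficient of variation was 0.0633, against 0.278 in tumours. The replicate block left 0 pathway genes called in the difference (Sfrp1 8.43, adjusted p = 0.0567) and ended the Gli3 call of tumours against culture (-0.54, 0.0854), as did testing without the low-count filter (-0.56, 0.0843). Replicate numbers were not taken to pair samples: same-numbered cultures correlated at 0.090, 0.094 and -0.026 in their deviations from group means, NET replicate 3 did not correlate best with its own number, and tumours had only 2 numbers. Leaving out 1 library gave 0 to 1 pathway genes for laparotomy in WT hosts, 0 to 1 in KO hosts and 0 to 1 for the difference, and 3 to 6 members for tumours against culture. In KO against WT and in both laparotomy comparisons it left 0 members called.

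Members that turned sign were past no threshold on either side, and Hhip did so far from 0 (1.64 for KO against WT without surgery when WT control replicate 2 was left out). Ptch1 in NET cultures was at -0.15 with library totals and -0.0056 with no filter, and ran from -0.0535 to 0.0555 over left-out libraries. Sufu for KO against WT without surgery was at -0.028 with library totals and ran from -0.20 to 0.20. Over left-out libraries, laparotomy in WT hosts ran from -0.16 to 0.0005 for Sufu, -0.0324 to 0.84 for Gli2 and -0.0585 to 0.40 for Gli3. In KO hosts it ran from -0.52 to 2.47 for Hhip, -0.49 to 0.0659 for Smo, -0.16 to 0.24 for Sufu, -0.85 to 0.0517 for Gli3 and -0.21 to 0.55 for Ptch1. The difference ran from -0.0804 to 0.32 for Sufu. KO against WT ran without surgery from -0.72 to 0.28 for Gli2, -0.23 to 0.51 for Ptch1, -3.58 to 1.64 for Hhip and -0.10 to 0.45 for Smo, and with laparotomy from -0.68 to 0.0887 for Ptch1 and -0.0138 to 0.89 for Gli3. Gli1 kept its sign in every alternative. The causes were not tested. Depth limits Hhip, with 2 to 129 counts per tumour library, and Gli2 and Hhip in culture.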
